A study of Mus musculus with 12 samples.

Results

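The comparison set 2 libraries of GATA3-KO cells against 2 libraries of Rictor-KO cells, all 4 from cells given isorhamnetin (IR) at 10 µM for 6 h, and covered all autosomal genes. The cells were J774.1, a macrophage-like line of the BALB/c mouse strain, and RNA-seq reads were counted per gene. The 4 libraries were chosen by genotype and treatment alone, from 12 in the series: 3 genotypes (WT, Rictor-KO, GATA3-KO) by 2 treatments, IR or its solvent DMSO for the same time, with 2 libraries a group. The count tables listed 25683 genes, 24549 of them autosomal; 13539 autosomal genes had an exon read in the 4 libraries, and 11448 had enough reads to be tested. Neither group was wild type, so a difference can come from either line; levels of the WT IR libraries are given beside some genes as a reference, with no test. The labels name 1 line per knockout and say neither how it was made nor whether it is 1 clone, and what a knockout does cannot be told apart from other differences that its line has gathered. Whether the 2 libraries of a group are separate cultures is not stated either. The p-values set a difference between groups against the variation within groups, estimated over all 12 libraries. That variation may be technical.

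RICTOR is the defining subunit of mTOR complex 2, the kinase complex that phosphorylates Akt and other AGC kinases downstream of growth factor receptors, and mTOR signalling controls ribosome production, lipid synthesis and the cell cycle. GATA3 is a zinc-finger transcription factor best known for directing T helper 2 and innate type 2 lymphocytes, with described roles in macrophages. Isorhamnetin is a plant flavonol, the methylated form of quercetin, studied for antioxidant and anti-inflammatory actions. Whether these pathways act together in macrophages was not tested here.

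The targeted genes were read first. Rictor, at chr15:6708379-6800401 on the plus strand of GRCm38, stood at 28.5 and 27.6 CPM in GATA3-KO and 23 and 23.9 CPM in Rictor-KO under IR (CPM, a gene's exon reads scaled to an equal library size), against 46 and 43.7 CPM in WT IR. All 4 knockout libraries lay below both WT libraries, and the Rictor-KO libraries lay below the GATA3-KO libraries by a small margin (log2 difference 0.26 ± 0.09 SE, adjusted p = 0.0294). That call was lost when any 1 of the 4 libraries was left out (adjusted p up to 0.136). Gata3, at chr2:9857078-9890034 on the minus strand, had 0.498 and 0.46 CPM in GATA3-KO and 0.418 and 0.496 CPM in Rictor-KO, against 0.908 and 0.814 CPM in WT IR. Its groups overlapped and did not pass the test (0.07 ± 0.55, adjusted p = 0.933). A frameshift can leave mRNA in place, so these levels do not check the edits, and where each edit lies was not stated in the labels. The label of each line is used as given.

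Exon reads totalled 53099804 and 43542173 in the GATA3-KO IR libraries and 38685944 and 38593807 in the Rictor-KO IR libraries. Mitochondrial genes took 0.504% and 0.610% of the exon reads in GATA3-KO and 0.854% and 0.917% in Rictor-KO. The Rictor-KO replicates stood apart: of 9634 genes with an average log2 CPM of at least 1, 181 (1.88%) were 2-fold apart between the Rictor-KO IR replicates and 25 (0.26%) between the GATA3-KO IR replicates. The same happened under DMSO, with 218 genes for Rictor-KO. Of values between 1 and 4 reads, 81.2% of 4001 were even numbers, so both mates of a read pair seem to have been counted; the counting intervals and floors given here cover counting error only and are too narrow if so.

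Under IR, 6139 of 11448 genes (53.6%) passed edgeR's quasi-likelihood test at an adjusted p below 0.05. Of these, 2982 (26% of the tested genes) were higher in GATA3-KO and 3157 (27.6%) were higher in Rictor-KO. The differences were mostly small: 1087 genes differed at least 2-fold, 493 of them higher in GATA3-KO and 594 higher in Rictor-KO, and the median absolute log2 difference over all tested genes was 0.43. The median signed difference was -0.0028, so the scaling left neither group higher as a whole. CPM did not overlap between the groups in 8853 genes (77.3%). These shares are the background for every gene group below. All log2 differences are GATA3-KO minus Rictor-KO with their SE, and a gene is called higher or lower only if it passed this test.

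Much of the contrast was also present without the compound. The DMSO libraries, which share no library with the IR comparison, gave 3425 calls (29.9%), 1764 (15.4%) higher in GATA3-KO and 1661 (14.5%) higher in Rictor-KO. Of the 6139 genes called under IR, 94.2% had the same sign under DMSO, beside 81.3% of all tested genes. Called in both treatments were 2932 genes, which is 47.8% of the IR calls and 85.6% of the DMSO calls. Among these, 2924 had the same direction and 8 the opposite. The 1087 genes that differed 2-fold under IR had the same sign under DMSO in 98% of cases, and 851 were called in the same direction. Across all tested genes Pearson's r of the log2 differences was 0.70 and Spearman's rho 0.75; genes are not independent replicates, and the lines are the same in both treatments. Over all tested genes, the median absolute log2 difference was 0.43 under IR and 0.26 under DMSO. No gene passed the test of the difference between the IR and DMSO contrasts in the main edgeR fit, the one used for the calls above. In that fit 2627 genes had an unadjusted p below 0.05, and DESeq2 called 980. The main fit has no term for the replicate number. Within a line, however, same-numbered IR and DMSO replicates deviated together (correlation 0.823 in Rictor-KO and 0.665 in GATA3-KO). Its 0 calls therefore do not show that the contrasts were equal. The count of calls depended on the fit: edgeR called 227 genes with no filter on low counts, 485 with the replicate number as a block and 3072 with the block within genotype. Without the second GATA3-KO DMSO replicate, 1615 genes were called under DMSO and 1461 had a difference between the contrasts.

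**Figure D1:**
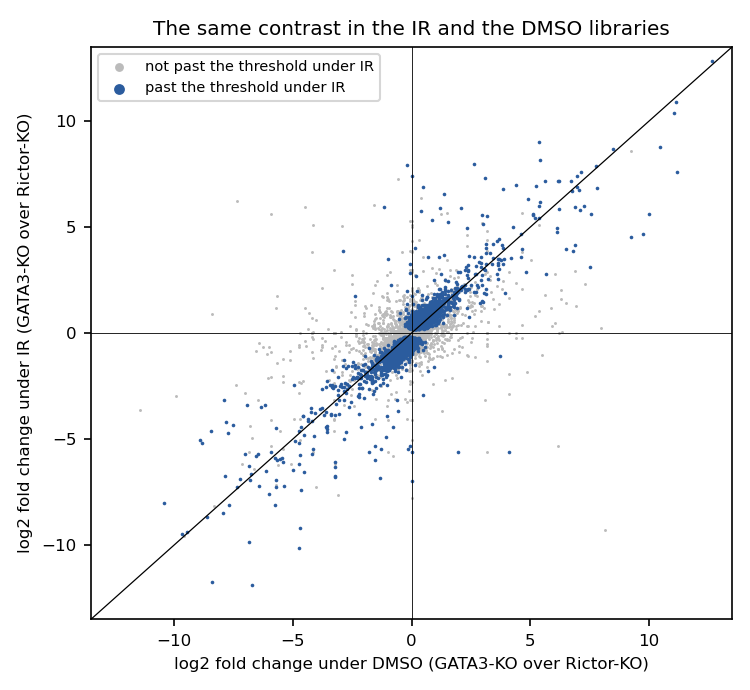
Log2 differences (GATA3-KO over Rictor-KO) of the 11448 tested autosomal genes, under DMSO on the horizontal axis and under IR on the vertical axis, with the line of equal values. Blue points are the 6139 genes past the threshold under IR. Of these, 94.2% have the same sign in both treatments, beside 81.3% of all tested genes.

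The genes with the largest differences towards GATA3-KO were low in Rictor-KO, which a ranking by ratio favours. Psma8, on chromosome 18, encodes a variant proteasome subunit known from the testis. It had 22.4 and 22.5 CPM in GATA3-KO and no read in either Rictor-KO library (2196 against 0 reads, at least 606-fold higher, with a floor of 3 reads over the group), and 18.3 and 17 CPM in WT IR. Ccnd2 encodes cyclin D2, which drives G1 progression with CDK4 and CDK6. Its values were 35.4 and 33.6 CPM in GATA3-KO and 0.0492 and 0.0993 CPM in Rictor-KO, against 3.51 and 2.54 CPM in WT IR, so both knockout lines lay outside the WT level, on opposite sides (8.80 ± 0.32, adjusted p = 1.97e-10). Axl, a receptor tyrosine kinase of macrophages that recognises apoptotic cells through Gas6, had 157 and 146 CPM in GATA3-KO and 1.01 and 3.82 CPM in Rictor-KO, and 72.3 and 57.3 CPM in WT IR. The groups were far apart although the Rictor-KO replicates differed between themselves (5.97 ± 0.54, adjusted p = 0.000138). Ppic, the peptidyl-prolyl isomerase cyclophilin C, stood at 62.5 and 76.3 CPM in GATA3-KO and 0.0985 and 0 CPM in Rictor-KO (10.37 ± 0.35), and WT IR had 32.9 and 27.8 CPM. With 1 Rictor-KO replicate left out, the log2 difference of Axl was 5.31 or 7.23 (without the first or the second) and that of Ppic 14.45 or 9.42; both calls were kept.

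Mapk12 encodes p38 gamma, a MAP kinase that is typical of muscle. It had 8.13 and 7.76 CPM in GATA3-KO and 0.0492 and 0 CPM in Rictor-KO, that is 778 against 2 reads (ratio 322, 95% counting interval 88.9 to 2666), and only 0.504 and 0.433 CPM in WT IR. Ppfibp2, the scaffold protein liprin beta 2, followed the same order, with 11.8 and 8.77 CPM in GATA3-KO and 0 and 0.0993 CPM in Rictor-KO and 0 and 0.102 CPM in WT IR. Both genes were therefore high in GATA3-KO alone among the 3 lines under IR. Lgalsl, a galectin-related protein, had 21.5 and 21.9 CPM in GATA3-KO and 0.148 and 0.248 CPM in Rictor-KO (6.75 ± 0.29) with 14.5 and 14.4 CPM in WT IR, so that here the Rictor-KO level was the one apart from WT. Agap2, a GTPase-activating protein of Arf that is known to bind PI3K, had 6.27 and 4.97 CPM in GATA3-KO and 0.148 and 0 CPM in Rictor-KO (6.19 ± 0.56). Ctse, the aspartic protease cathepsin E of endosomes, had 5.37 and 5.34 CPM in GATA3-KO and 0.0985 and 0.124 CPM in Rictor-KO (5.55 ± 0.49). Klk8, a secreted kallikrein serine protease, had 11.6 and 16.3 CPM in GATA3-KO and 0.295 and 1.24 CPM in Rictor-KO (4.18 ± 0.64), with 0.101 and 0.102 CPM in WT IR. The remaining leaders in this direction were Zfp334, Hapln4, Tmem273, Gca and Zfp516, with log2 differences between 4.14 ± 0.39 (Zfp516) and 10.92 ± 0.74 (Zfp334), the last against a group with no read and so dependent on the prior count. Leaving out the first or the second Rictor-KO replicate gave 11.32 or 7.25 for Mapk12, 6.65 or 11.69 for Ppfibp2, 10.82 or 5.22 for Agap2 and 3.49 or 5.55 for Klk8, and without the first Zfp516 had 4.81.

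The genes with the largest differences towards Rictor-KO were likewise low in GATA3-KO, under the same ranking. Adcy2, an adenylyl cyclase that makes cyclic AMP, had no read in GATA3-KO and 15.1 and 8.49 CPM in Rictor-KO (0 against 956 reads, at least 385-fold lower in GATA3-KO), with 3.03 and 4.02 CPM in WT IR. Prkar2b, a regulatory subunit of protein kinase A and so a step further down the cyclic AMP pathway, had 41.8 and 35.7 CPM in Rictor-KO and 0.701 and 0.253 CPM in GATA3-KO (-6.28 ± 0.39), with 23.6 and 23.8 CPM in WT IR. Slc8a1, a sodium-calcium exchanger of the plasma membrane, had 26.3 and 17.6 CPM in Rictor-KO and 0.111 and 0.184 CPM in GATA3-KO (-7.22 ± 0.32, adjusted p = 1.99e-09), and 27.9 and 38 CPM in WT IR. For Prkar2b and Slc8a1 the WT libraries lay on the Rictor-KO side. Nsd1, a histone H3 lysine 36 methyltransferase, had 19.8 and 22.9 CPM in Rictor-KO and 0.184 and 0.506 CPM in GATA3-KO (-6.0 ± 0.27, adjusted p = 1.99e-09), and 13.7 and 14.2 CPM in WT IR. Antxr1, an anthrax toxin receptor that binds collagen, had 37.5 and 27.2 CPM in Rictor-KO and 0.35 and 0.161 CPM in GATA3-KO (-6.92 ± 0.30) but only 1.69 and 2.09 CPM in WT IR, so its high level was in Rictor-KO. Without the first GATA3-KO replicate the log2 difference was -7.62 for Antxr1 and -7.24 for Prkar2b; for Nsd1 it was -5.39 or -6.83 without the first or the second.

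Lyz1, which encodes lysozyme, the bacteriolytic enzyme of phagocytes, differed widely between replicates and lines. It had 219 and 21.1 CPM in Rictor-KO and 0.0369 and 0.345 CPM in GATA3-KO, and 854 and 782 CPM in WT IR; under DMSO it had 234 and 18.8 CPM in Rictor-KO and 0.0512 and 0.292 CPM in GATA3-KO. The same numbered Rictor-KO replicate was high in both treatments, and the WT level was above both knockout lines. The log2 difference under IR was -9.39 ± 2.31 (adjusted p = 0.014), and the call was lost without either GATA3-KO replicate (adjusted p up to 0.084); over the 4 libraries left out in turn it ran from -11.55 to -6.89. Lyz2, its close paralogue and the main lysozyme gene of macrophages, showed a like order, with 2450.0 and 788 CPM in Rictor-KO and 217 and 271 CPM in GATA3-KO, and 3279 and 2951 CPM in WT IR (-2.73 ± 0.77, adjusted p = 0.0235, lost without either GATA3-KO replicate or the first Rictor-KO replicate, up to 0.119). Without the first or the second Rictor-KO replicate its log2 difference was -1.69 or -3.33. Ms4a6b, a membrane protein of the MS4A family, showed the same replicate pattern with 15.4 and 3.82 CPM in Rictor-KO and 0 and 0.046 CPM in GATA3-KO (-8.66 ± 1.64), as did Shisa3 with 7.16 and 2.36 CPM in Rictor-KO and 0 and 0.0921 CPM in GATA3-KO (-6.73 ± 1.06). Sema6d, a transmembrane semaphorin, had its higher value in the other Rictor-KO replicate, with 4.83 and 20.4 CPM in Rictor-KO and 0.111 and 0.138 CPM in GATA3-KO (-6.64 ± 1.18). With 1 of the 4 libraries left out, Ms4a6b ran from -11.58 to -7.34, Shisa3 from -10.57 to -5.64 and Sema6d from -7.34 to -5.26. Epop, which binds Elongin BC and the Polycomb complex PRC2, had 10.5 and 10.7 CPM in Rictor-KO and no read in GATA3-KO (0 against 857 reads, at least 345-fold lower). Arhgap24 and the gene listed as Arhgap26_2, both GTPase-activating proteins, had 6.87 and 5.21 CPM and 12.3 and 12.5 CPM in Rictor-KO and at most 0.0921 CPM in GATA3-KO. Cc2d2a, Sec16b and Sdr39u1 completed the group of 15; Sdr39u1 is uncertain because 60.7% of its reads mapped uniquely. No tested gene passed the test of a difference between IR and DMSO in the main edgeR fit, so that test does not set these 30 genes apart.

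**Figure D2:**
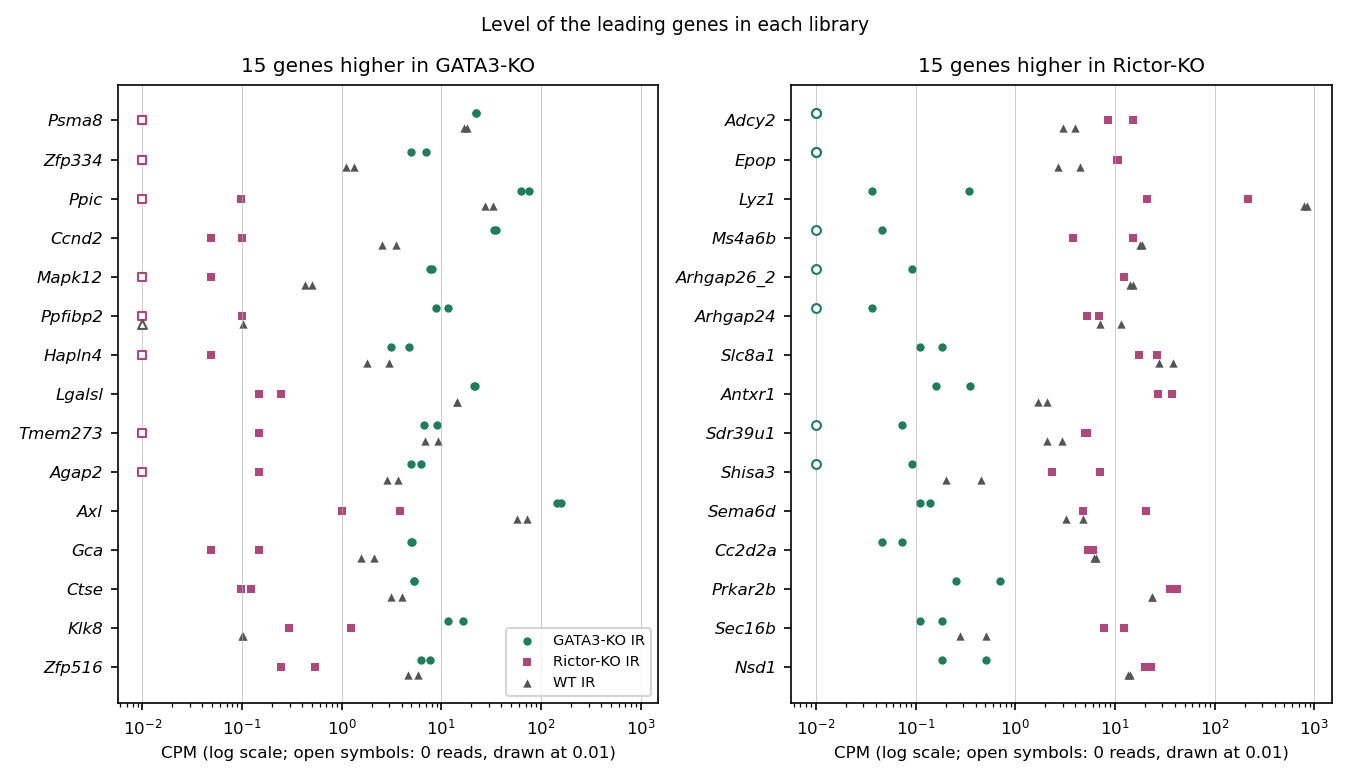
CPM on a log axis in the IR libraries for the 15 genes with the largest differences in each direction among those past the threshold with an average log2 CPM of at least 1. Each point is 1 library of GATA3-KO, Rictor-KO or WT; a library with no read is an open symbol at the left. The GATA3-KO and Rictor-KO libraries do not overlap in any of the 30 genes, as the choice of genes required.

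A stricter group held genes with at most 3 reads over both IR libraries of one line and at least 1 CPM in each library of the other; this rule was chosen after the values were seen and is a description. It named 9 genes read almost only in GATA3-KO (Psma8, Mapk12, AC167036.2, Hapln4, C1qtnf6, Zfp334, Zfp273, Erfe and Pik3c2g) and 9 read almost only in Rictor-KO (Epop, Ms4a6b, Adcy2, Rab4a, Arhgap24, Hebp2, Zfp438, Ccdc69 and Septin5). WT IR libraries had at least 1 CPM in 4 of the first 9 and in 8 of the second 9. Under DMSO, 7 of the first 9 and 5 of the second 9 met the same limit in the silent line, and the others had at most 10 and 12 reads there. The promoters of Zfp334, Mapk12 and Adcy2 are shown because such genes carry the extremes of the contrast, with that of Lyz1, whose level in GATA3-KO was above the read limit, as a promoter poor in CpG, the dinucleotide that DNA methylation acts on. Sequences are from RefSeq for GRCm38.p6, on the strand of the gene, from 250 bases before to 50 bases after the annotated start, with CpG in capitals. Zfp334 lies at chr2:165388210-165388509 (minus strand), Mapk12 at chr15:89140654-89140953 (minus), Adcy2 at chr13:68999492-68999791 (minus) and Lyz1 at chr10:117292819-117293118 (minus).
Zfp334: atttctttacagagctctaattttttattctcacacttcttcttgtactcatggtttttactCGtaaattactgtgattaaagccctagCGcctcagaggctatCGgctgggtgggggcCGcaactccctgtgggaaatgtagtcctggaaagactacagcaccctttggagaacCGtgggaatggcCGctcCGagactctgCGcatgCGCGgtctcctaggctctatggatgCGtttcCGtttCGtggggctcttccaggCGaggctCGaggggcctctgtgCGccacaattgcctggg
Mapk12: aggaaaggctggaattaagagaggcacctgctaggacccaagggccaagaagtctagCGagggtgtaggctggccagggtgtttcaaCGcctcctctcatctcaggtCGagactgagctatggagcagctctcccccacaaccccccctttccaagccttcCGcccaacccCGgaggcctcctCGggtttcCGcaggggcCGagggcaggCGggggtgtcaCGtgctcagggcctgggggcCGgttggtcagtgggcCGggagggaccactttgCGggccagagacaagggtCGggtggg
Adcy2: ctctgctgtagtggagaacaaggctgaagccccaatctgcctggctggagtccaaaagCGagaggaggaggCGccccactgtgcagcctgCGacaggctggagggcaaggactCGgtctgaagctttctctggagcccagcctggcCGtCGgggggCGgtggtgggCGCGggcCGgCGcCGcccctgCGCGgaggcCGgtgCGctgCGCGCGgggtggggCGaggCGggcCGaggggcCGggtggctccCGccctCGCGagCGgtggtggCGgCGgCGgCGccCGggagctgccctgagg
Lyz1: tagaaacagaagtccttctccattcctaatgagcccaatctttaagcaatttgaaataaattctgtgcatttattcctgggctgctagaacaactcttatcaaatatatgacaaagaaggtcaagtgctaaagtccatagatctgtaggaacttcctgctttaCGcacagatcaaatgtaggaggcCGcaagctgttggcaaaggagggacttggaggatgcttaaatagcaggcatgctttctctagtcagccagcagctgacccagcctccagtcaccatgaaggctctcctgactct
The windows hold 16 CpG for Zfp334, 14 for Mapk12, 32 for Adcy2 and 2 for Lyz1. Promoter windows were matched for 9070 of the 11448 tested genes (79.2%), too few for a comparison of CpG or motif shares between gene sets, so none is given. No methylation was measured.

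Chromosome 17 stood apart from the other autosomes. Of its 631 tested genes, 323 (51.2%) were higher in GATA3-KO and 60 were higher in Rictor-KO, with a median log2 difference of 0.46, or 1.38-fold. Over the other 18 autosomes the share higher in GATA3-KO ran from 17.9% to 30.8% and the median from -0.12 to 0.08. The same median on chromosome 17 was 0.47 under DMSO. Against WT IR, the chromosome's median was 0.53 in GATA3-KO and 0.04 in Rictor-KO, so the shift was on the GATA3-KO side. It was not even along the chromosome: below 60 Mb, a boundary set after the values were seen, 287 of 535 genes were higher in GATA3-KO and 36 in Rictor-KO (median 0.52), and from 60 Mb on the counts were 36 and 24 of 96 (median 0.15). The autosomes held 192 bins of 10 Mb with at least 20 tested genes. Their lowest median was -0.57, on chromosome 13 between 20 and 30 Mb, where a cluster of histone genes lies. The highest was 0.80, on chromosome 17 between 10 and 20 Mb. Off chromosome 17 the highest was 0.53, on chromosome 2 between 170 and 180 Mb. DNA copy number was not measured here, and its part in the shift was not tested.

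**Figure D3:**
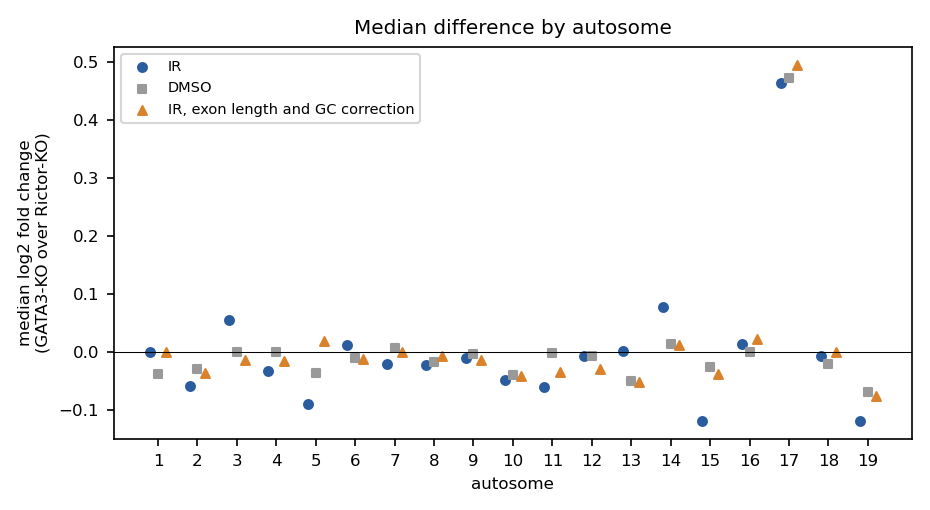
Median log2 difference (GATA3-KO over Rictor-KO) of the tested genes of each autosome under IR, under DMSO, and under IR after a correction for exon length and GC content. Chromosome 17 lies at 0.46 under IR and 0.47 under DMSO, and under IR the other 18 lie between -0.12 and 0.08. After the correction chromosome 17 lies at 0.49 and the other 18 between -0.08 and 0.02.

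Differences also followed exon length, the summed length of a gene's exons. Split into 5 equal groups by exon length, the shortest genes (median 1406 bases) had a median log2 difference of 0.39, and the longest (median 7299 bases) had -0.41. Of the shortest group, 47% were higher in GATA3-KO and 6.68% in Rictor-KO; of the longest, 9.88% and 53.5%. Spearman's rho between exon length and the difference was -0.39 across 11448 genes and -0.51 across the 7594 genes with an average log2 CPM of at least 4, and -0.30 and -0.44 under DMSO. Against WT IR the medians ran from 0.45 to -0.51 in GATA3-KO and from 0.08 to -0.08 in Rictor-KO. RNA integrity and fragment length are not known here, and their part in the pattern was not tested. A fit with a correction for exon length and GC content, added after the data were seen, called 5382 genes (47%; 23.2% higher in GATA3-KO, 23.9% higher in Rictor-KO). It kept 4009 of the 6139 calls (65.3%) with the same sign and turned 121 to a call in the opposite direction. Of the 1087 genes that had differed 2-fold, 977 were still called, and 746 genes differed at least 2-fold after the correction. Gene lists differ in exon length, so counts after this correction are given beside most of the lists described in detail.

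**Figure D4:**
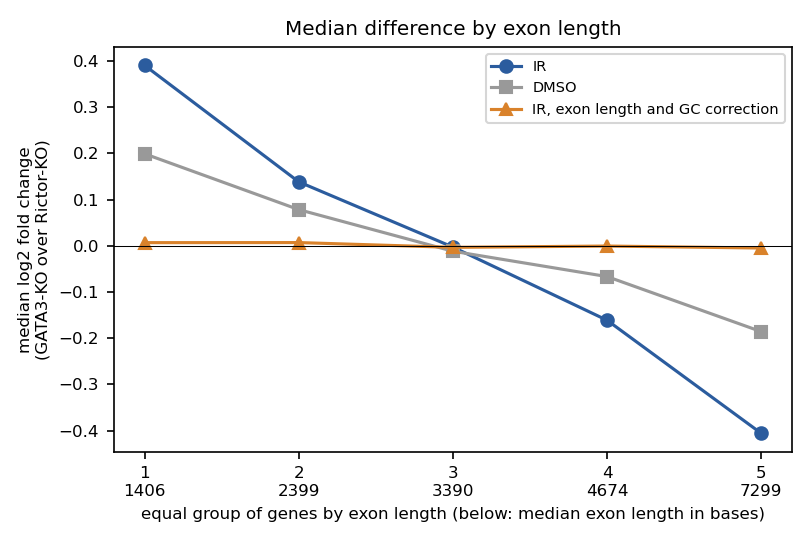
Median log2 difference (GATA3-KO over Rictor-KO) in 5 equal groups of the tested genes by exon length, under IR, under DMSO, and under IR after a correction for exon length and GC content. The IR medians run from 0.39 in the shortest group to -0.41 in the longest, and the corrected medians lie near 0.

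Most tested genes of the ribosome, of respiration and of the proteasome were higher in GATA3-KO. Of 78 tested cytosolic ribosomal proteins, 76 were higher in GATA3-KO and 0 in Rictor-KO, with a median log2 difference of 0.81; after the correction the counts were 54 and 7 and the median 0.33. Rpl36, of the large subunit, had 664 and 799.5 CPM in GATA3-KO and 320.2 and 279.9 CPM in Rictor-KO (1.29 ± 0.11), and Rpl32 had 1197 and 1437 CPM in GATA3-KO and 594 and 575 CPM in Rictor-KO (1.17 ± 0.11). Rps18, on chromosome 17, had 16.8 and 19.1 CPM in GATA3-KO and 5 and 5.49 CPM in Rictor-KO (1.78 ± 0.16). These 3 kept the direction after the correction, at 0.61, 0.59 and 1.11. Ribosomal protein genes have many processed pseudogenes, and the counting could split their reads. Rps10 is left uncertain for that reason, and so is Rps18, whose level was far below those of Rpl36 and Rpl32. Of 78 members, 66 were also higher under DMSO.

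Nuclear-encoded subunits of oxidative phosphorylation showed 59 of 73 members higher in GATA3-KO and 1 lower (median 0.60; 32 and 10 and median 0.13 after the correction). Ndufa7 and Ndufb10, accessory subunits of complex I, had 81.9 and 101 CPM in GATA3-KO and 33.9 and 31.4 CPM in Rictor-KO (1.48 ± 0.12) and 111 and 123 CPM in GATA3-KO and 54.6 and 52.9 CPM in Rictor-KO (1.12 ± 0.09). Ndufv3 (1.35 ± 0.10) and Ndufs6 (1.13 ± 0.10) completed the leaders of this list. The 1 member that was higher in Rictor-KO was Sdha, the catalytic subunit of complex II (-0.35 ± 0.08). Mitochondrial ribosomal proteins gave 55 of 79 higher and 1 lower, the last being Mrps2 (-0.38 ± 0.09), with a median of 0.50 and corrected counts of 35 and 21 (median 0.15). Mrpl28, on chromosome 17, had 169 and 209.5 CPM in GATA3-KO and 68.7 and 66.8 CPM in Rictor-KO (1.48 ± 0.11), and Mrpl24, on chromosome 3, had 121 and 138 CPM in GATA3-KO and 56 and 55.9 CPM in Rictor-KO (1.21 ± 0.10). Mrpl2 (1.36 ± 0.10) and Mrps10 (1.04 ± 0.09), both on chromosome 17, followed. Members on chromosome 17 were higher than the rest: all 6 oxidative phosphorylation genes there were called, with a median of 1.14 against 0.57 elsewhere, and all 8 mitochondrial ribosomal genes, with 1.05 against 0.48. The mitochondrial transcripts themselves took a smaller share of reads in GATA3-KO, as given with the depths.

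Constitutive proteasome subunits gave 29 of 36 higher in GATA3-KO and 4 higher in Rictor-KO (median 0.50), and 13 and 7 after the correction (median 0.12). Psmb1, a subunit of the catalytic core encoded on chromosome 17, had 480.4 and 574 CPM in GATA3-KO and 186 and 209 CPM in Rictor-KO (1.42 ± 0.11). Psmb6, a catalytic subunit that is replaced in the immunoproteasome, differed by 0.93 ± 0.09. The 4 members in the other direction were Psmd3, of the regulatory particle (-0.69 ± 0.09), the activators Psme3 (-0.45 ± 0.07) and Psme4 (-0.71 ± 0.11), and the inhibitor Psmf1 (-0.31 ± 0.10). The call of Psmf1 was lost without the second GATA3-KO IR or the second Rictor-KO IR replicate (adjusted p up to 0.161).

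Antigen presentation through MHC class I was higher in GATA3-KO in 14 of 22 tested members and higher in Rictor-KO in 2 (median 0.59; corrected 12 and 3, median 0.33). Psmb8, the inducible catalytic subunit of the immunoproteasome, had 170.2 and 190.5 CPM in GATA3-KO and 39.1 and 46.3 CPM in Rictor-KO (2.08 ± 0.12, adjusted p = 2.56e-08). Tap2, which carries peptides into the endoplasmic reticulum, had 44.2 and 40.3 CPM in GATA3-KO and 15.7 and 17.6 CPM in Rictor-KO (1.34 ± 0.10). The nonclassical class I genes H2-T23 (1.25 ± 0.11) and H2-Q4 (1.07 ± 0.09) were higher too; class I genes are near-identical to each other, so their split is uncertain. Most of the list lies in the MHC on chromosome 17, where 14 members had a median of 0.84. The 8 members on other chromosomes had a median of 0.13, with 3 higher and 2 lower, the lower ones being the transactivator Nlrc5 (-0.41 ± 0.12, turning to 0.26 after the correction) and the trimming peptidase Erap1 (-0.38 ± 0.14). Of the class II list, 13 members were tested, with a median log2 difference of 0.67 and 12 of 13 above 0; the 8 members on chromosome 17 had a median of 1.73, and none of those 8 passed the test. The calls were Ctss, the protease cathepsin S that degrades the invariant chain (0.51 ± 0.09, corrected 0.01), and Rfx5, a class II promoter factor (-0.30 ± 0.12, corrected -0.06). The list had 4 calls without either Rictor-KO DMSO replicate and 1 without the first GATA3-KO DMSO, the first GATA3-KO IR or the second Rictor-KO IR replicate. Other small calls also rested on single libraries. Nlrc5 was lost without the second GATA3-KO IR or the first Rictor-KO IR replicate (adjusted p up to 0.073), Erap1 without the second replicate of either IR group or either GATA3-KO DMSO replicate (up to 0.249), and Rfx5 without any of the 4 compared libraries, any WT library or the first GATA3-KO DMSO replicate (up to 0.199).

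Interferon-stimulated genes were higher in GATA3-KO in 24 of 62 and higher in Rictor-KO in 9 (median 0.44; corrected 17 and 5, median 0.22). These 33 calls became 19, 18 or 20 without the first GATA3-KO IR, the second GATA3-KO IR or the first Rictor-KO IR replicate. Ifi44, a GTP-binding antiviral protein, had 35.2 and 35.6 CPM in GATA3-KO and 3.59 and 3.6 CPM in Rictor-KO, and 32.3 and 20.2 CPM in WT IR (3.30 ± 0.21). Its neighbour Ifi44l had 7.58 and 6.31 CPM in GATA3-KO and 1.48 and 1.76 CPM in Rictor-KO (2.10 ± 0.26), and Ifi47, an immunity-related GTPase, had 16.4 and 20.9 CPM in GATA3-KO and 6.4 and 6.68 CPM in Rictor-KO (1.51 ± 0.21). In the other direction was Samhd1, which restricts viruses by degrading nucleotides (-0.75 ± 0.08). Inflammatory cytokines and NF-κB targets were split, 13 against 8 of 47 (median 0; corrected 8 and 6). Lcn2, the iron-siderophore binder lipocalin 2, had 6.34 and 6.72 CPM in GATA3-KO and 0.788 and 0.596 CPM in Rictor-KO (3.23 ± 0.32), and Saa3, an acute phase protein, had 1.99 and 2.44 CPM in GATA3-KO and 0.443 and 0.323 CPM in Rictor-KO (2.52 ± 0.39). Of the NF-κB subunits, Nfkb1 (-0.61 ± 0.10) and Rel (-0.76 ± 0.10) went the other way. Other subunits are not described here.

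Genes of the mTOR complexes and the Akt pathway, which include the partners of RICTOR, were lower in GATA3-KO in 33 of 48 and higher in 7 (median -0.38). Without the second GATA3-KO IR replicate, 26 were called in place of 40. The correction left 18 lower and 8 higher (median -0.16). Inpp5d, the lipid phosphatase SHIP1 that limits PI3K signals in blood cells, had 201 and 188 CPM in Rictor-KO and 88 and 78.3 CPM in GATA3-KO (-1.23 ± 0.12, corrected -0.85). Pik3cg, the catalytic subunit of PI3K gamma, had 155 and 138 CPM in Rictor-KO and 82.9 and 79.1 CPM in GATA3-KO (-0.86 ± 0.09, corrected -0.56). Eif4ebp2, a translation repressor that mTOR complex 1 phosphorylates, had 175 and 165 CPM in Rictor-KO and 92.2 and 82.6 CPM in GATA3-KO (-0.96 ± 0.11). Mtor itself had 96.7 and 97.7 CPM in Rictor-KO and 58.8 and 55.9 CPM in GATA3-KO (-0.76 ± 0.08), but its sign turned after the correction, to 0.02. Of the complex subunits, Prr5, which belongs to mTOR complex 2, had 7.21 and 6.5 CPM in Rictor-KO and 1.46 and 1.08 CPM in GATA3-KO (-2.42 ± 0.29), and Mlst8, shared by both complexes and encoded on chromosome 17, had 52.5 and 55.2 CPM in GATA3-KO and 32.2 and 28.8 CPM in Rictor-KO (0.82 ± 0.10).

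In lipid synthesis, which mTOR signalling feeds through SREBP factors, most tested genes of both lists were higher in Rictor-KO. Of 23 cholesterol synthesis genes, 14 were higher in Rictor-KO and 2 in GATA3-KO (median -0.38; corrected 14 and 2, median -0.44). Srebf2, the factor that drives this pathway, had 224 and 225 CPM in Rictor-KO and 115 and 101 CPM in GATA3-KO (-1.06 ± 0.10, corrected -0.50), and Dhcr7, a late reductase of the pathway, had 51.2 and 60.1 CPM in Rictor-KO and 30.3 and 24.4 CPM in GATA3-KO (-1.02 ± 0.13). The 2 members higher in GATA3-KO were Acat2 (0.66 ± 0.08), on chromosome 17, and Tm7sf2 (0.89 ± 0.27), whose call was lost without the second GATA3-KO IR or the first Rictor-KO IR replicate (adjusted p up to 0.088). Fatty acid synthesis gave 14 of 23 higher in Rictor-KO and 0 in GATA3-KO (median -0.40; corrected 11 and 0). Fasn, the fatty acid synthase, had 666 and 659 CPM in Rictor-KO and 251 and 213 CPM in GATA3-KO (-1.51 ± 0.12, corrected -0.51). Scd2, a desaturase, had 843 and 971 CPM in Rictor-KO and 418 and 384 CPM in GATA3-KO (-1.18 ± 0.11), and the factor Srebf1 had 133 and 123 CPM in Rictor-KO and 66.8 and 57.7 CPM in GATA3-KO (-1.04 ± 0.10). In the list of LXR targets and cholesterol efflux, by contrast, 6 members were higher in GATA3-KO and 6 in Rictor-KO of 18.

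Of 64 genes of G2/M and mitosis, 29 were higher in Rictor-KO, 8 were higher in GATA3-KO and 27 did not pass the test (median -0.20), and the correction raised the first count to 43 beside 9 (median -0.33). Mki67, the proliferation antigen Ki-67, had 721 and 703 CPM in Rictor-KO and 237 and 223 CPM in GATA3-KO, with 754 and 911 CPM in WT IR (-1.63 ± 0.14, corrected -1.06). Cenpf, a kinetochore protein, had 143 and 144 CPM in Rictor-KO and 53.4 and 51.2 CPM in GATA3-KO (-1.45 ± 0.12), and Aspm, a spindle pole protein, had 94.7 and 94.1 CPM in Rictor-KO and 43.1 and 41.2 CPM in GATA3-KO (-1.16 ± 0.11). Replication genes were divided, with 21 higher in GATA3-KO and 24 in Rictor-KO of 65 (corrected 14 and 25). Among them Dnmt1, the maintenance DNA methyltransferase, had 745 and 653 CPM in Rictor-KO and 351 and 299.6 CPM in GATA3-KO (-1.10 ± 0.13). Replication-dependent histones had 11 of 38 higher in Rictor-KO, 0 in GATA3-KO and 27 not past the test, with a median of -1.22 (corrected -1.76). Their calls numbered 4, 6 or 7 without the first GATA3-KO IR, the second GATA3-KO IR or the first Rictor-KO IR replicate. Their mRNAs are not polyadenylated and near-identical in sequence, and whether the libraries were selected for poly(A) is not given, so their levels are uncertain. Of the 18 G1 cyclins, CDKs and inhibitors, 6 were higher in GATA3-KO and 5 in Rictor-KO (7 calls in all without the second GATA3-KO IR replicate). After the correction the counts of this list were 3 and 4. Beside Ccnd2, Cdkn1a, the inhibitor p21 encoded on chromosome 17, had 283 and 254 CPM in GATA3-KO and 164 and 145 CPM in Rictor-KO (0.80 ± 0.13). Cdkn2c, the inhibitor p18, had 90.5 and 85.9 CPM in Rictor-KO and 34.8 and 37.2 CPM in GATA3-KO (-1.29 ± 0.10).

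**Figure D5:**
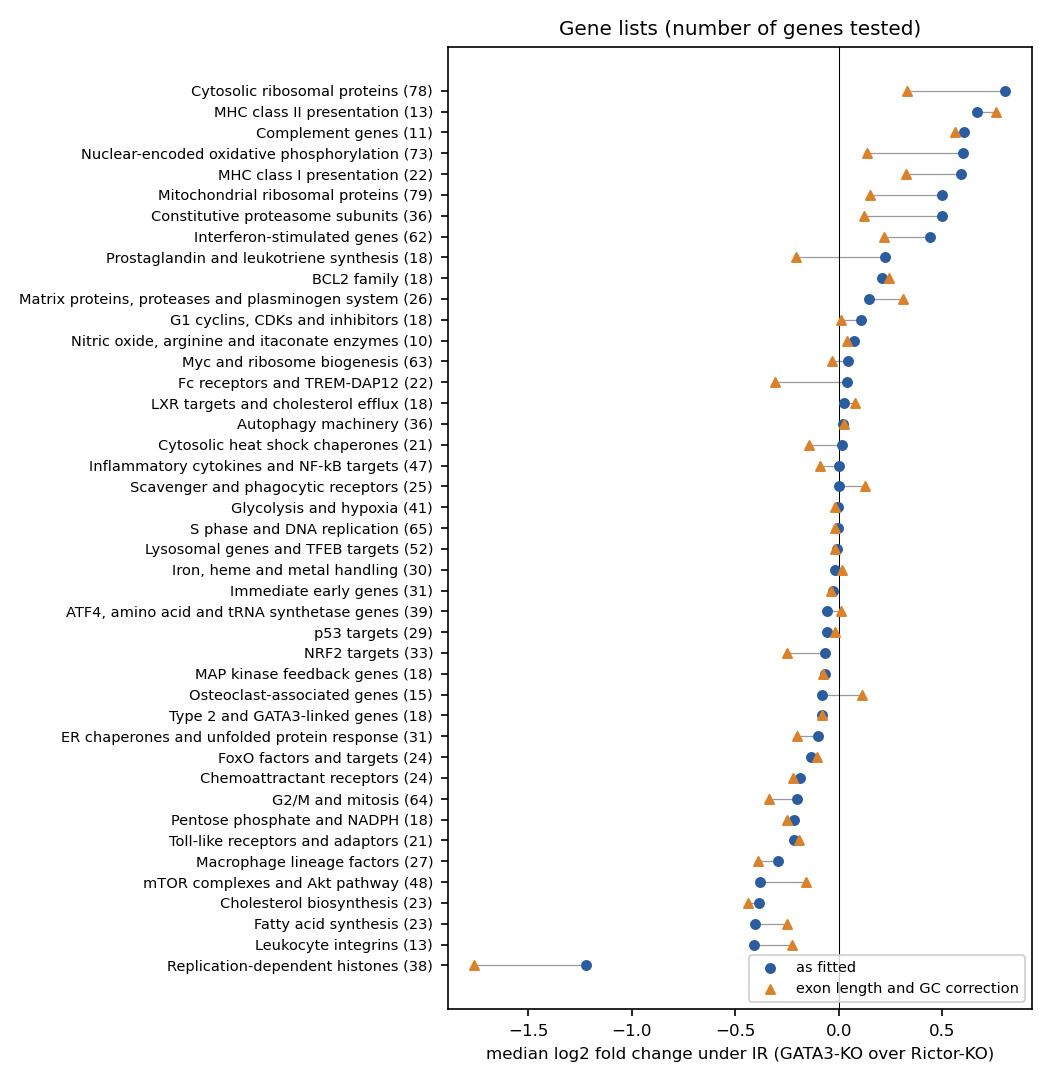
Median log2 difference (GATA3-KO over Rictor-KO, IR) of each gene list, with the number of tested members in brackets; circles are medians as fitted and triangles medians after the correction for exon length and GC content, joined by a line, and the marker lists of other cell types are left out. Cytosolic ribosomal proteins lie highest as fitted, at 0.81, and replication-dependent histones lowest, at -1.22.

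Genes that mark macrophages were read in both lines, and several differed in level. Csf1r, the receptor for the macrophage growth factor CSF1, had 1497 and 1173 CPM in Rictor-KO and 872 and 792 CPM in GATA3-KO (-0.68 ± 0.12), with 1614 and 1686 CPM in WT IR. Spi1, the factor PU.1 that macrophages require, had 279 and 271 CPM in GATA3-KO and 297 and 237 CPM in Rictor-KO and did not pass the test (0.04 ± 0.12, adjusted p = 0.781). Adgre1, the surface antigen F4/80, had 37 and 5.73 CPM in Rictor-KO and 7.43 and 8.22 CPM in GATA3-KO, so that its groups overlapped through the spread of the Rictor-KO replicates (-1.45 ± 1.11, adjusted p = 0.321; 0.45 without the first and -2.24 without the second Rictor-KO replicate, so its direction rests on the first). Of 27 macrophage lineage factors, 10 were higher in Rictor-KO and 5 in GATA3-KO (median -0.29; corrected 11 and 3), and their summed level was 3378 and 3343 CPM in GATA3-KO against 6554 and 4084 CPM in Rictor-KO. The summed levels did not overlap, but the Rictor-KO replicates were far apart. Lyz2 and Csf1r made up a large part of the Rictor-KO sums, so the sums say little about the other members. Cebpa, a myeloid transcription factor, had 23.1 and 13.3 CPM in Rictor-KO and 1.22 and 1.56 CPM in GATA3-KO (-3.72 ± 0.39). Without the second GATA3-KO IR replicate, 9 of the list were called in place of 15. Csf2ra, the alpha chain of the GM-CSF receptor, had 61.5 and 47.3 CPM in Rictor-KO and 25.6 and 26.4 CPM in GATA3-KO (-1.07 ± 0.14), whereas Aif1, the actin-bundling protein Iba1 encoded on chromosome 17, had 14.8 and 16.2 CPM in GATA3-KO and 4.16 and 2.95 CPM in Rictor-KO (2.12 ± 0.20). Fewer cells of a type and less RNA per cell cannot be told apart in bulk libraries.

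Surface receptors differed in both directions. Among 25 scavenger and phagocytic receptors, 8 were higher in GATA3-KO and 5 in Rictor-KO (corrected 3 and 4). Colec12, a scavenger receptor with a collagen domain, had 106 and 78.5 CPM in Rictor-KO and 6.55 and 6.03 CPM in GATA3-KO, with 350.4 and 366 CPM in WT IR (-3.88 ± 0.18), and Siglec1, the sialic acid receptor CD169, had 16.8 and 20.9 CPM in Rictor-KO and 1.22 and 1.5 CPM in GATA3-KO (-3.80 ± 0.17). For Fc receptors and the TREM-DAP12 group the counts were 7 and 6 of 22 (corrected 5 and 7; 8 calls in all without the second GATA3-KO IR replicate). Fcgr2b, the inhibitory Fc gamma receptor, had 46.4 and 49.9 CPM in GATA3-KO and 12.9 and 14.5 CPM in Rictor-KO (1.81 ± 0.12), and Trem2, a lipid-sensing receptor encoded on chromosome 17, had 248 and 263 CPM in GATA3-KO and 132 and 111 CPM in Rictor-KO (1.07 ± 0.10). Toll-like receptors and adaptors gave 4 and 8 of 21 (corrected 1 and 8). Tlr9, the sensor of CpG DNA, had 27.1 and 21.4 CPM in Rictor-KO and 6.68 and 6.08 CPM in GATA3-KO (-1.92 ± 0.14). Tlr1, which pairs with TLR2 on bacterial lipopeptides, had 39.5 and 42.3 CPM in GATA3-KO and 12.4 and 16 CPM in Rictor-KO (1.53 ± 0.14). Chemoattractant receptors had 3 and 4 calls of 24 (corrected 2 and 4). Among them Cx3cr1, the fractalkine receptor, had 496 and 345 CPM in Rictor-KO and 69.3 and 64.9 CPM in GATA3-KO (-2.65 ± 0.25). Of 13 leukocyte integrins and linkers, 8 were higher in Rictor-KO and 1 in GATA3-KO (median -0.41; corrected 6 and 1); Itga4 had 532 and 380.5 CPM in Rictor-KO and 219.6 and 213 CPM in GATA3-KO (-1.08 ± 0.14), and Itgb7 was the 1 in the other direction (0.85 ± 0.20).

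Stress and redox genes were mixed. NRF2 targets, the antioxidant and detoxification genes that flavonols are often studied for, gave 8 and 10 of 33 (higher in GATA3-KO and in Rictor-KO), and 5 and 17 after the correction (median -0.07, corrected -0.25). Cbr1, a carbonyl reductase, had 44.4 and 50.5 CPM in GATA3-KO and 12 and 12.1 CPM in Rictor-KO (1.98 ± 0.12), and Nqo1, a quinone reductase, had 7.45 and 7.96 CPM in GATA3-KO and 0.64 and 1.14 CPM in Rictor-KO (3.11 ± 0.40). Abcc1, an exporter of glutathione conjugates, had 407 and 351 CPM in Rictor-KO and 203 and 175 CPM in GATA3-KO (-1.0 ± 0.10). In the same order, pentose phosphate and NADPH genes gave 2 and 8 of 18 (corrected 2 and 13). ER chaperones with the unfolded protein response gave 4 and 13 of 31 (corrected 4 and 15). Heat shock chaperones gave 5 and 6 of 21 (corrected 3 and 8). ATF4, amino acid and tRNA synthetase genes gave 8 and 14 of 39; in this list Cth, the transsulfuration enzyme that makes cysteine, had 105 and 102 CPM in GATA3-KO and 18.6 and 24.1 CPM in Rictor-KO (2.28 ± 0.25). Iron, heme and metal genes gave 6 and 7 of 30: Steap3, an endosomal ferrireductase, had 9.95 and 7 CPM in Rictor-KO and 0.682 and 0.783 CPM in GATA3-KO (-3.53 ± 0.30), and Slc40a1, the iron exporter ferroportin, had 37 and 37.4 CPM in GATA3-KO and 15.7 and 17 CPM in Rictor-KO (1.19 ± 0.15). The FoxO list, whose factors Akt holds in the cytoplasm, gave 6 and 7 of 24, with a log2 difference for Foxo3 of -1.02 ± 0.13 and for its target Bcl2l11 of -1.02 ± 0.15. Without the second GATA3-KO IR replicate, calls in either direction numbered 14 for the ATF4 list, 9 for the ER list and 5 for the pentose phosphate list (5 also without the first Rictor-KO IR replicate). Klf4, a zinc-finger factor on both the FoxO and the immediate early lists, had 6.65 and 4.69 CPM in Rictor-KO and 1.05 and 1.1 CPM in GATA3-KO (-2.39 ± 0.26).

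The other lists held smaller or balanced counts, given here as members higher in GATA3-KO and in Rictor-KO. Glycolysis and hypoxia genes gave 11 and 16 of 41, lysosomal genes and TFEB targets 14 and 13 of 52, and the autophagy machinery 13 and 12 of 36. Myc with ribosome biogenesis gave 22 and 17 of 63, immediate early genes 5 and 10 of 31, and MAP kinase feedback genes 1 and 4 of 18. Type 2 and GATA3-linked genes gave 1 and 4 of 18; the 1 higher in GATA3-KO was Il1rl1, the interleukin 33 receptor (0.77 ± 0.17), and Stat6, the interleukin 4 signal transducer, was among those higher in Rictor-KO (-0.82 ± 0.09). Matrix proteins and proteases gave 3 and 3 of 26, nitric oxide, arginine and itaconate enzymes 2 and 1 of 10, prostaglandin and leukotriene synthesis 4 and 3 of 18, and osteoclast-associated genes 4 and 5 of 15. The BCL2 family gave 5 and 3 of 18, p53 targets 8 and 9 of 29, and complement genes 3 and 0 of 11. Of the p53 targets, Bax, which permeabilises mitochondria, differed by 0.81 ± 0.10, and Mdm2, which degrades p53, by 0.89 ± 0.11. At 2-fold or more, 1 p53 target was higher in GATA3-KO and 3 were higher in Rictor-KO. Several of these small counts rested on single libraries. Without the second GATA3-KO IR replicate, calls in either direction numbered 4 for the BCL2 family, 1 for complement, 3 for matrix, 4 for osteoclast, 3 for prostaglandin and 9 for p53 genes. Without the first Rictor-KO IR replicate they numbered 1 for complement, 4 for osteoclast and 11 for p53 genes; the osteoclast list also had 4 without the first GATA3-KO IR replicate, and the nitric oxide list had 6 without the second Rictor-KO IR replicate.

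Markers of other cell types were mostly at or near 0. All summed levels in this paragraph cover only the tested members of a list. Of 22 T and NK cell markers, 17 had no read in the 4 libraries and 3 were tested; the summed level was 24.9 and 23.9 CPM in GATA3-KO and 6.08 and 5.73 CPM in Rictor-KO, most of it from Cd5, a surface glycoprotein of T cells and some B cells. Cd5 alone had 21.8 and 21 CPM in GATA3-KO and 3.74 and 3.52 CPM in Rictor-KO, and 0.404 and 0.611 CPM in WT IR (2.56 ± 0.17, adjusted p = 1.98e-07). Tested markers of B and plasma cells summed to at most 0.783 CPM in any of the 4 libraries. Those of mast and erythroid cells summed to at most 0.645 CPM, and those of epithelial and endothelial cells to at most 1.23 CPM. None of the 2, 2 and 3 tested members of these lists was called. An untested mast or erythroid marker reached 0.5902 CPM, so levels summed over whole lists can be higher. The neutrophil list summed to 1.11 and 0.76 CPM in GATA3-KO and 2.91 and 1.64 CPM in Rictor-KO, with 1 tested member, not called. Fibroblast markers summed to 0.738 and 0.783 CPM in GATA3-KO and 2.76 and 2.76 CPM in Rictor-KO, and the 1 call of 4 was Acta2, smooth muscle actin (2.17 and 1.47 CPM in Rictor-KO and 0.221 and 0.368 CPM in GATA3-KO, -2.62 ± 0.73), lost without the first GATA3-KO IR replicate (adjusted p = 0.0677). The dendritic cell list, which shares genes with macrophages, summed to 234 and 224 CPM in GATA3-KO and 202 and 237 CPM in Rictor-KO, so that the groups overlapped. Its calls among 7 tested members were Bst2, the virion tether tetherin (0.36 ± 0.12), and Tcf4, an E protein of plasmacytoid dendritic cells (-0.28 ± 0.09). Both changed sign after the correction for exon length and GC content, to -0.24 and 0.17, and both calls were lost without the second GATA3-KO IR replicate. Bst2 was also lost without either first IR replicate (adjusted p up to 0.249), and Tcf4 without the second Rictor-KO IR replicate (up to 0.156). The neutrophil and the epithelial and endothelial lists each gained 1 call without the second Rictor-KO IR replicate, and the neutrophil list also without either Rictor-KO DMSO replicate.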

How the data were processed

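RNA-seq of J774.1 cells was deposited as 1 table per library with exon read counts per gene. Per the labels' protocols, total RNA was extracted with a column kit and made into standard Illumina libraries; the build is GRCm38, per the submitters' processing notes, and the aligner and counter are not given in the sources used here. The counts were used as the authors deposited them, unnormalized. TPM values that the authors deposited in the same tables were used only to order the genes read in 1 line. Strand was not stated, so overlapping and antisense genes cannot be told apart. 3 deposited tables of the authors' fold changes were not used.

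Groups came from the labels. Total exon reads of all 12 libraries entered edgeR 4.0.16 (R 4.3.3; TMM scaling, filterByExpr over 6 groups, robust quasi-likelihood F test, 2-sided), with a mean per group. Benjamini-Hochberg adjustment covered all 11808 genes that passed the filter; 11448 autosomal ones are reported, at a threshold of 0.05. 3348 genes with an exon read did not pass the filter. SE is the absolute log2 difference over the root of F. CPM are scaled by TMM. Counts were also simulated from these means (11575 genes), with 50 genes altered at each fold, in random directions and with no exon length trend. Changes of 1.5, 2 and 4-fold were recovered for 34%, 72% and 94% of the altered genes in the IR comparison, and 11 of 153 calls were false. In the data 53.6% of genes were called and differences followed exon length, so these shares need not hold there.

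The members, lists and tests were chosen with earlier results of these data known. Genes named are Rictor, Gata3, the 15 with the largest difference in each direction (average log2 CPM of at least 1, groups not overlapping) and up to 4 per list by smallest p. Beyond this rule, genes were named after their values were seen: the single or few calls against a list's direction, Prr5, Mlst8, Cebpa, Csf1r, Spi1, Adgre1, Lyz2, Cth, Nqo1 and the genes read in 1 line. Alternatives were RLE and upper quartile scaling, DESeq2 1.42.0, other filters, unique reads, fewer libraries, replicate blocks, each library left out, and an exon length and GC correction (a smooth offset per library).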

Additional observations from a re-analysis of the deposited data

How the results depend on the processing

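The 6139 calls under IR stayed within 1.5 times under every alternative run: 6218 with DESeq2, 5991 with only the 4 libraries, 5382 with the exon length and GC correction, and 4380 to 6310 with 1 library left out (lowest without the second GATA3-KO IR replicate). Of the 3425 DMSO calls the replicate block within genotype made 5272, and leaving out 1 library gave 1615 (without the second GATA3-KO DMSO replicate) to 3506. The difference between the contrasts, with 0 calls, had 980 with DESeq2, 227 with no filter on low counts, 485 with the replicate block, 3072 with the replicate block within genotype, and 0 to 1461 with 1 library left out (highest without the second GATA3-KO DMSO replicate); the cause was not tested. Replicate numbers do not pair the compared lines: deviations from the group means of same-numbered GATA3-KO and Rictor-KO IR replicates correlated at 0.06 over 7846 genes, and IR with DMSO at 0.82 within Rictor-KO and 0.67 within GATA3-KO; the block gave 6282 calls under IR, and 7266 within genotype. Of the called genes named by the rule or in the text, 7 changed sign, all under the exon length and GC correction: Mtor to 0.018, Plxnd1 to 0.14, Nrp2 to 0.12, Cr1l to -0.070, Bst2 to -0.24, Tcf4 to 0.17 and Nlrc5 to 0.26. Of those not called, Gata3, Zbtb46, Klf1, Spi1 and Adgre1 changed sign with 1 library left out. Of 50 list medians, the correction moved 29 beyond the replicate spread and turned 9, and upper quartile scaling, which shifted the median of all genes to 0.06, moved 24 and turned 8. The medians of the ribosomal, respiratory, proteasome, MHC class I, interferon, mTOR, cholesterol, fatty acid, mitotic, histone, integrin and macrophage factor lists kept their sign under all alternatives run. A group left with 1 library was assumed to vary like the others. The effect of unequal depth was not tested.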
